A study of Mus musculus with 6 samples.

Results

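The growth hormone and IGF axis of the liver was followed through 10 genes, taken by name from the deposited counts after Ensembl identifiers were paired with mouse symbols. They are the receptor and signalling genes Ghr and Stat5b, the feedback inhibitors Socs2 and Cish, the hormone gene Igf1, its carrier Igfals, and the binding protein genes Igfbp1, Igfbp2, Igfbp3 and Igfbp4. All 10 were found among 55471 gene identifiers, and all 10 passed the filter on low counts, which left 13812 genes for testing. The samples were livers of 6 male wild-type C57BL/6J mice, 3 fasted for 4 h and 3 for 16 h, with 1 RNA sequencing library per mouse. Neither group was fed at sampling, so the 4 h fast is a short fast and not a fed state, and neither the age of the mice nor the time of day of sampling is given in the sources used here. The labels name 3 mice a group but not litters or cages. The p-values set the difference between the groups against the spread between livers of the same group, for these 6 livers.

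Growth hormone from the pituitary binds its receptor, the product of Ghr, on hepatocytes. The receptor's kinase JAK2 then activates the transcription factor STAT5B, which drives genes such as Igf1, Igfals, Socs2 and Cish, and the SOCS2 and CIS proteins of the last pair damp the same receptor. Liver is the main source of circulating IGF-1, which travels in blood bound to IGFBP proteins, much of it with IGFBP3 and the acid-labile subunit encoded by Igfals. Fasting is known to make rodent liver resistant to growth hormone, and IGFBP1 is known as the binding protein that rises when insulin is low.

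With the longer fast Igfbp1 rose and Cish, Ghr and Igfals fell, while Igf1 itself did not pass the test. Thus 1 of the 10 genes was called higher and 3 lower by edgeR, against a background of 9.17% of all tested genes called higher and 9.51% called lower (18.7% in either direction). The other 6 did not pass. The median log2 fold change was -0.24 over the 10 genes and -0.03 over all tested genes. In 1 gene all 16 h values lay above all 4 h values and in 4 they lay below, where 19.7% of tested genes did so in each direction and 39.4% in either. Each change is the log2 ratio of the 16 h to the 4 h livers with its SE (n = 3 a group), and the test threshold was an adjusted p of 0.05. CPM are depth-scaled read counts on TMM-adjusted library sizes, with means ± SD (n = 3).

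The count held at 1 higher and 3 lower with DESeq2 (background 11% and 9.79%), with the replicate number as a block (9.79% and 10.1%) and without 4 h replicate 1 (7.4% and 7.42%). Without 4 h replicate 3 it was 2 higher, Igfbp2 being added, and 3 lower (11.1% and 9.73%), and with no filter on low counts 2 higher and 2 lower (5.81% and 5.8%). It was 1 higher and 2 lower, Cish being lost, without 4 h replicate 2 (8.18% and 7.8%) and without 16 h replicate 1 (5.82% and 5.85%), 2 (4.74% and 4.98%) or 3 (4.77% and 4.94%).

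Promoter letters are shown for the genes with the steepest change, Igfbp1 and Cish, and for Igfals, since each holds a motif tied in textbooks to insulin or growth hormone signals. They come from the RefSeq promoter windows of GRCm38.p6, which run from 250 bases before to 50 bases after an annotated start, and are written 5′ to 3′ on the plus strand, the coding strand of these genes. Capitals mark CAAAACA or CAAAATA in either orientation in Igfbp1, known from insulin response sequences bound by FOXO factors, and TTCNNNGAA in the others, the STAT5 element.
Igfbp1, chr11:7197647-7197726: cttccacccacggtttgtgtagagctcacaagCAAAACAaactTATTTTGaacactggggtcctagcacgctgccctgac
Cish, chr9:107296654-107296682: cagttTTCCTGGAAagTTCTTGGAAatct
Igfals, chr17:24878163-24878191: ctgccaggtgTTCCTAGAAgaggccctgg
Igfals, chr17:24877598-24877626: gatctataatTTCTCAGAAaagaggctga
In Igfbp1 the CAAAACA match covers bases 108 to 102 before the start and the reverse CAAAATA match bases 97 to 91 before it. Both STAT5 letter matches of Cish lie just after the RefSeq start, at bases 1 to 9 and 12 to 20. The matches in Igfals lie 58 to 50 bases before one of its 3 annotated starts and 236 to 228 bases before another.

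Such letters are common enough that a match is a description only. TTCNNNGAA was found in 8.30% of 32851 promoter windows of this length, and a window with at least 2 matches, as in Cish, in 0.457%. CAAAACA was found in 6.28% of windows, CAAAATA, which was added to the search after the sequence had been read, in 4.36%, and both together in 0.472%. Of the 14 windows of these genes 3 held TTCNNNGAA, 1 of them that of Cish and 2 of Igfals, and 1 held CAAAACA. The FOXO core GTAAACA, found in 3.65% of all windows, matched in reverse at 242 to 236 bases before a start of Igfals. The glucocorticoid element made of GNACA and TGTNC with 3 bases between them and found in 0.475% of all windows, matched none of the 14. Motifs were searched on both strands, and windows of 9 of the 10 genes were in the table. Socs2 was not in it.

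Ghr, the receptor gene, on chromosome 15 at 3317760 to 3583492 of GRCm38, stood at 556, 564 and 506 CPM in the 4 h livers and at 368, 356 and 352 CPM in the 16 h livers. All 3 livers of the long fast lay far below all 3 of the short one, with little spread inside either group. The mean went from 542 ± 31.6 to 359 ± 8.25 CPM, a 1.51-fold fall (-0.60 ± 0.10, edgeR adjusted p = 0.00264). The call held without any single library, with log2 changes between -0.63 and -0.55.

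Stat5b, the transcription factor gene on chromosome 11 at 100780731 to 100850724, had 61.5, 62.7 and 52.5 CPM after 4 h and 62.7, 63.6 and 55.5 CPM after 16 h. The groups overlapped almost fully, and the test did not pass (0.04 ± 0.11, 95% interval -0.20 to 0.28, edgeR adjusted p = 0.83). The sign of this small difference turned without 4 h replicate 3 (-0.02). A change of the Stat5b transcript by 1.5-fold in either direction lies outside the interval.

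**Figure D1:**
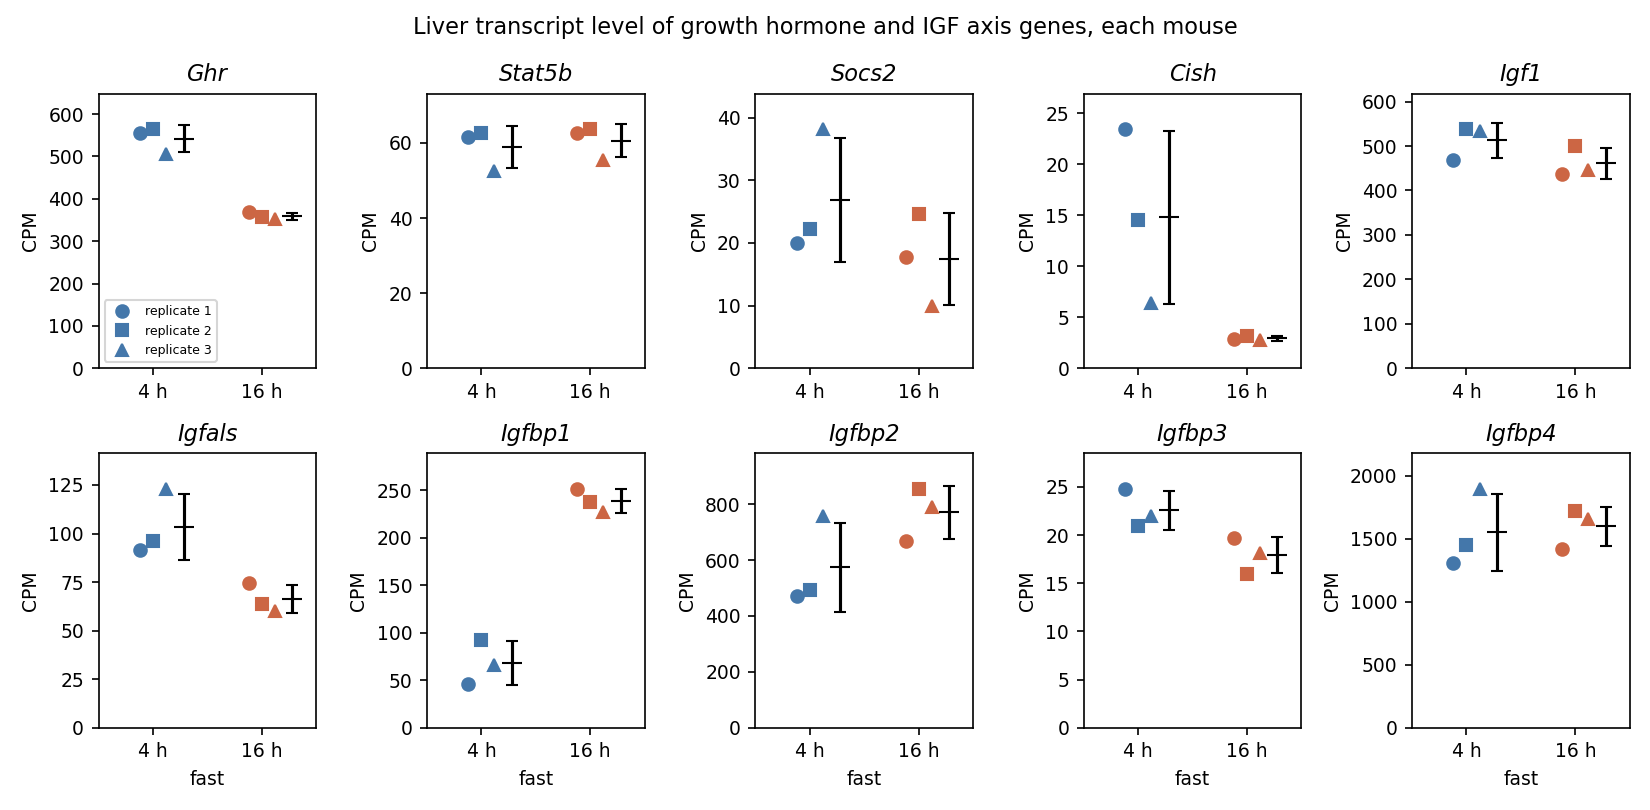
Transcript level in CPM (vertical axis, from 0, one scale per panel) of the 10 genes after a 4 h (blue) and 16 h (orange) fast. Each symbol is 1 liver, its shape the replicate number, and black bars are mean ± SD of 3 livers. Igfbp1 is higher in all 16 h livers, Ghr, Cish, Igfals and Igfbp3 are lower in all of them, and the other genes overlap.

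Cish, which encodes the feedback inhibitor CIS, on chromosome 9 at 107296026 to 107302784, had the widest spread of the 10 genes, relative to its mean, among the 4 h livers, at 23.4, 14.5 and 6.42 CPM. After 16 h it was at 2.84, 3.19 and 2.76 CPM. Even the lowest 4 h liver lay above the highest 16 h liver, and the 3 long-fasted livers were close to each other. The fitted fall was 5.11-fold (-2.35 ± 0.46, edgeR adjusted p = 0.0159), and only 0.34% of tested genes had a lower log2 change. These levels rest on 123 to 637 counts in a 4 h library and 53 to 67 in a 16 h library.

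The fall of Cish kept its direction without any single library, with log2 changes from -2.70 to -1.82, but its call did not always hold. The edgeR adjusted p rose to 0.0812 when 4 h replicate 2 was left out, to 0.0574, 0.0531 and 0.0744 when 16 h replicate 1, 2 or 3 was, and to 0.0854 with no filter on low counts. DESeq2 called it (adjusted p = 1.28e-09). Noncoding genes on the opposite strand overlap 11.5% of its exon bases, and since no strand setting is stated, reads there may have been left out or shared.

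Socs2, the other feedback inhibitor, on chromosome 10 at 95385362 to 95417180, was at 20.02, 22.3 and 38.1 CPM after 4 h and 17.8, 24.6 and 9.91 CPM after 16 h. The highest value belonged to a 4 h liver and the lowest to a 16 h liver, but the rest were interleaved. Its difference of -0.63 ± 0.39 did not pass (95% interval -1.58 to 0.32, edgeR adjusted p = 0.314). The 4 h liver with the most Socs2, replicate 3, was the one with the least Cish, so that these 2 genes ranked the short-fasted livers in opposite order. Of Cish and Socs2 only Cish was called, and the difference between their changes was not tested.

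Igf1, the hormone gene, on chromosome 10 at 87858265 to 87937042, stood at 468, 537 and 534 CPM after 4 h and 437, 500.3 and 446 CPM after 16 h. The groups overlapped, the highest 16 h liver lying above the lowest 4 h liver. The mean was 513 ± 39.1 and 461 ± 34.4 CPM, a difference that did not pass (-0.15 ± 0.11, 95% interval -0.40 to 0.09, edgeR adjusted p = 0.362). A fall of Igf1 as large as that of Ghr or Igfals lies outside this interval.

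Igfals, whose product holds IGF-1 in its large blood complex, on chromosome 17 at 24865997 to 24882010, was at 91.4, 96.4 and 123.0 CPM after 4 h. After 16 h it was at 74.6, 64.0 and 60.3 CPM, below every 4 h liver. The fall was 1.56-fold (-0.64 ± 0.14, edgeR adjusted p = 0.00736) and was called in each fit that left out 1 library, though narrowly where that was 16 h replicate 2 or 3 (0.0463 and 0.0498, the edgeR adjusted p). Per kilobase of exon, Igfals had 0.63 ± 0.08 of the Igf1 level after 4 h and 0.45 ± 0.07 after 16 h. By library that ratio was 0.611, 0.561 and 0.720 against 0.534, 0.400 and 0.423, with no overlap.

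**Figure D2:**
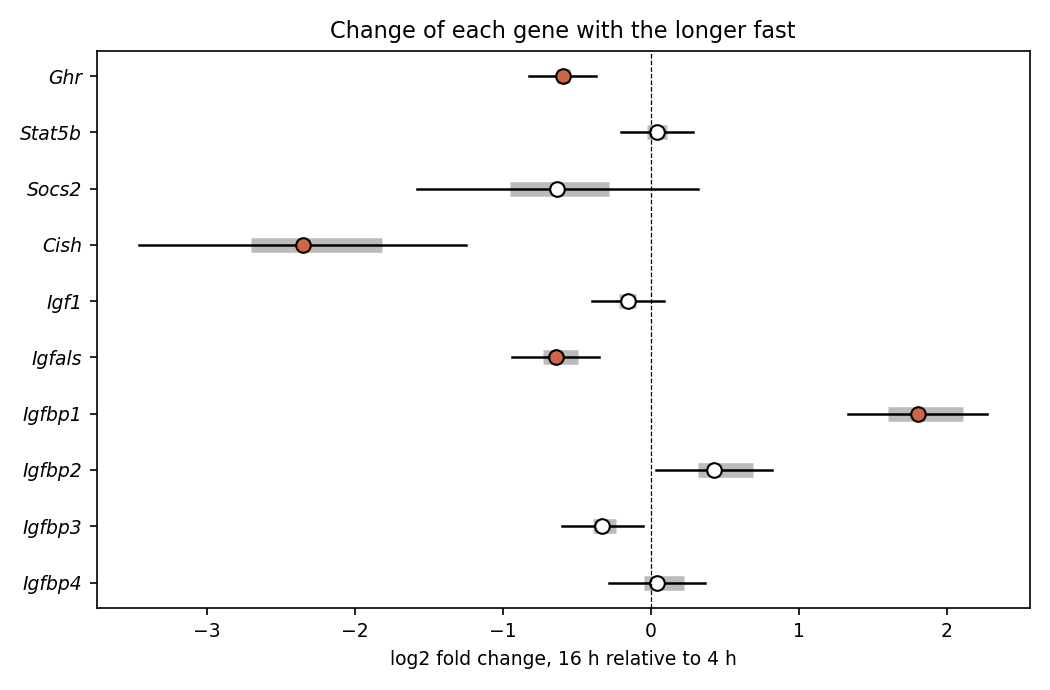
Log2 fold change of each gene at 16 h relative to 4 h (horizontal axis), with 95% intervals from edgeR as black lines and the range over 6 fits without 1 library as grey bars. Filled circles passed the test and open circles did not. Igfbp1 lies at 1.80 and Cish at -2.35, while the grey bars of Stat5b and Igfbp4 cross 0.

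Igfbp1, the gene of the insulin-sensitive binding protein, on chromosome 11 at 7197782 to 7202546, had 46.5, 92.8 and 66.0 CPM in the 4 h livers. The 16 h livers were at 251, 237 and 227 CPM, each more than double the highest 4 h liver. From 68.4 ± 23.3 to 238 ± 12.3 CPM, the rise was 3.49-fold (1.80 ± 0.21, edgeR adjusted p = 0.000436). Only 0.492% of tested genes had a larger log2 change. The rise was called without each single library, at 1.60 to 2.11 and edgeR adjusted p of at most 0.0372.

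Igfbp3 is the neighbour of Igfbp1, on the opposite strand at 7206086 to 7213923, with 3.54 kb between their ends, and it lay in the other direction. Its values were 24.8, 20.9 and 22.0 CPM after 4 h and 19.7, 16.0 and 18.2 CPM after 16 h. Every 16 h liver was below every 4 h liver, by little, and the test did not pass (-0.33 ± 0.12, edgeR adjusted p = 0.0895). Rodent liver makes the Igfbp3 transcript mainly outside hepatocytes. Of 10 markers of sinusoidal endothelial cells none was called by edgeR, while 1 was higher and none lower by DESeq2 and at an unadjusted p under 0.05, and their summed level was 202 to 219 CPM after 4 h and 196 to 249.9 CPM after 16 h. Of 10 Kupffer cell markers 1, Timd4, fell by edgeR, 3 were lower by DESeq2, 4 were lower at an unadjusted p under 0.05 and none was higher by any of these, with sums of 143 to 255 and 133 to 160.3 CPM. By edgeR 9.17% of all tested genes were called higher and 9.51% lower, and by DESeq2 11% and 9.79%. No such share was taken at an unadjusted p under 0.05, so counts at that limit have no background here. The part of such cells in the Igfbp3 values was not tested, and in whole liver fewer cells of a type and less RNA per cell cannot be told apart.

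Igfbp2, a binding protein gene highly expressed in liver, on chromosome 1 at 72824503 to 72852474, stood at 470.5, 493 and 757 CPM after 4 h and 669, 854 and 789 CPM after 16 h. Replicate 3 of the 4 h fast sat among the long-fasted livers, and the other 2 short-fasted livers were below all of them. The difference of 0.43 ± 0.18 did not pass (edgeR adjusted p = 0.121, DESeq2 adjusted p = 0.0505). Without 4 h replicate 3 it was 0.69 ± 0.11 and passed (edgeR adjusted p = 0.00109), and it also passed without the filter on low counts (0.46 ± 0.13, edgeR adjusted p = 0.00538). In all the other fits that left out 1 library it did not pass, with log2 differences down to 0.32.

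That library carried lung transcripts: its 8 listed lung markers summed to 238 CPM, against 34.6 and 44.0 CPM in the other 4 h livers and 39.9 to 49.8 CPM in the 16 h livers. Hopx, the most abundant of them by its mean, was at 29.3 CPM or more in every liver and made up most of the sums elsewhere. Scgb1a1, a secretory product of airway cells picked after its values were seen, was at 94.9 CPM there and at most 0.933 CPM elsewhere. The 7 neutrophil markers were also high in it, at 17.0 CPM in sum against at most 3.61 CPM elsewhere, with Csf3r, the most abundant by its mean, at 2.45 CPM there. The part of such tissue in the values of Igfbp2, Socs2 or any other gene in that library was not tested. Without that library the falls of Ghr, Cish and Igfals and the rise of Igfbp1 were all called. Their log2 changes were then -0.63, -2.70, -0.49 and 1.80, against -0.60, -2.35, -0.64 and 1.80 with all libraries.

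Igfbp4, on chromosome 11 at 99041244 to 99054392, encodes a binding protein that holds IGF-1 until proteases cleave it. It was at 1308, 1448 and 1895 CPM after 4 h and 1421, 1717 and 1653 CPM after 16 h. The groups overlapped and the 4 h replicate 3 value was again the highest of its group. The difference was 0.04 ± 0.15 (95% interval -0.28 to 0.37, edgeR adjusted p = 0.869) and was slightly negative without 4 h replicate 1 (-0.05) or 16 h replicate 2 (-0.01).

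The binding protein genes were compared with each other per kilobase of exon, using all annotated exon bases of a gene, which understates genes with many rarely used exons. Igfbp4, at 351 ± 69.4 CPM per kilobase after 4 h and 362 ± 35.3 after 16 h, and Igfbp2, at 311 ± 86.1 and 417 ± 50.8, were the highest of the 10 genes, and the values of these 2 overlapped in both groups. After 4 h they were followed by Ghr (59.9 ± 3.49), Igf1 (51.8 ± 3.95), Igfbp1 (44.9 ± 15.3) and Igfals (32.7 ± 5.36). Neighbours from Igf1 to Igfals overlapped in that order. After 16 h Igfbp1 came right after these 2, at 156 ± 8.05 CPM per kilobase, apart from Igf1 (46.5 ± 3.47) below it, and Ghr (39.6 ± 0.911) and Igfals (20.9 ± 2.33) came next. The lowest were Stat5b (10.6 ± 1.01 and 10.9 ± 0.800), Igfbp3 (7.21 ± 0.642 and 5.74 ± 0.597), Socs2 (2.81 ± 1.04 and 1.83 ± 0.769) and Cish (2.30 ± 1.32 and 0.456 ± 0.036). Of these only Socs2 and Cish overlapped, and only after 4 h.

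The makeup of the binding protein transcripts shifted between the groups. The summed level of Igfbp1 to Igfbp7 was 754 ± 159 CPM per kilobase after 4 h and 969 ± 75.5 after 16 h, and the groups overlapped. Within it Igfbp1 went from 44.9 ± 15.3 to 156 ± 8.05 and Igfbp2, which did not pass its test, from 311 ± 86.1 to 417 ± 50.8. Of the summed CPM per kilobase of Igfbp1 to Igfbp7, Igfbp1 held 4.82%, 8.73% and 4.64% in the 4 h livers and 18.6%, 15.0% and 15.1% in the 16 h livers. Its share went from 6.06 ± 2.31% to 16.2 ± 2.03%, and the highest 4 h liver stayed below the lowest 16 h liver. The share of Igfbp4 went the other way, from 46.6 ± 0.588% to 37.3 ± 0.904%, although its own level did not pass a test, since shares must sum to 100%. Igfbp2 held 40.8 ± 2.81% and 43.0 ± 1.94%, Igfbp7 5.24 ± 1.13% and 2.77 ± 0.656%, and Igfbp3 0.988 ± 0.252% and 0.598 ± 0.109%. Per kilobase, Igfbp1 was at 0.645, 1.12 and 0.803 times the Igf1 level after 4 h and 3.74, 3.08 and 3.30 times after 16 h. These shares and ratios are descriptions with no test.

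**Figure D3:**
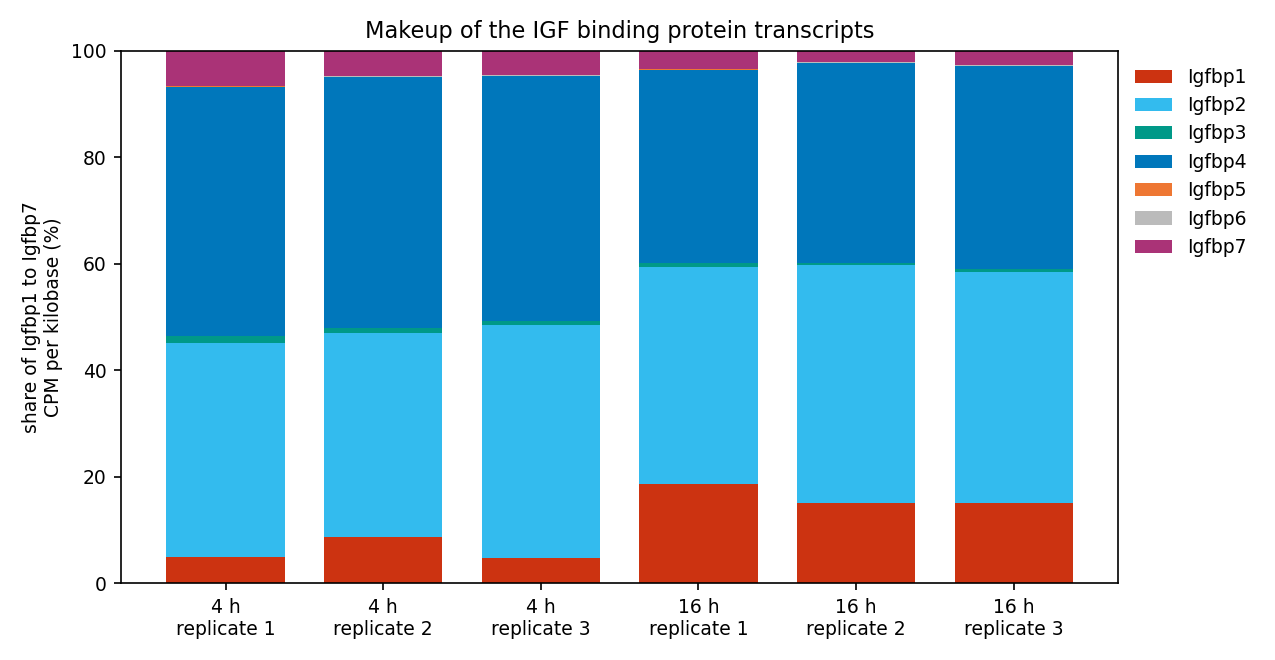
Share of each gene in the summed CPM per kilobase of Igfbp1 to Igfbp7 (vertical axis, percent), 1 bar per liver. The red segment at the base, Igfbp1, is at most 8.73% in the 4 h livers and at least 15.0% in the 16 h livers, and Igfbp2 and Igfbp4 make up most of each bar.

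The genes also differed in how alike the 3 livers of a group were. The coefficient of variation of Igfbp1 was 34.0% after 4 h and 5.15% after 16 h, and that of Cish 57.4% and 7.84%. For Ghr it was 5.82% and 2.30%, for Igf1 7.63% and 7.45%, and for Stat5b 9.47% and 7.31%. Socs2 varied in both groups, with 36.8% and 42.1%. With 3 livers a group these spreads are imprecise, and their differences were not tested.

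Other genes of growth hormone signalling were taken from a list of 20, of which 19 were tested and 1, Socs1, had too few counts. In this list 1 was called higher, 3 lower and 15 did not pass, beside 9.17% and 9.51% of all tested genes, and the median log2 change was -0.11. Ptpn11, the gene of the phosphatase SHP2, rose from 56.2, 51.7 and 50.4 CPM to 86.7, 92.3 and 82.4 CPM (0.72 ± 0.10, edgeR adjusted p = 0.0008). Sh2b2, an adaptor of receptor kinases, fell from 3.58 ± 0.156 to 1.21 ± 0.060 CPM (-1.56 ± 0.22, edgeR adjusted p = 0.000844). The groups did not overlap for these 2 genes, and values inside each group were close. Those of Sh2b2 rest on 94, 55 and 72 counts after 4 h and 26, 20 and 31 after 16 h, so their closeness is imprecise.

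Lifr, the receptor gene for leukaemia inhibitory factor and the most abundant gene of the list, fell 2.29-fold, from 262, 418 and 409 CPM to 153, 178 and 144 CPM (-1.20 ± 0.17, edgeR adjusted p = 0.001). Onecut1, the gene of the transcription factor HNF6, fell from 10.2, 21.1 and 6.00 CPM to 3.20, 3.01 and 3.82 CPM (-1.87 ± 0.45, edgeR adjusted p = 0.0293). Its log2 change was -1.26 without 4 h replicate 2 and ranged down to -2.18 over the other fits that left out 1 library. Leaving out 16 h replicate 1, 2 or 3 ended that call (0.0939, 0.0976 and 0.088, the edgeR adjusted p), and a gene on the same strand overlaps 52.8% of its exon bases, so its level is uncertain. Jak2, the receptor's kinase, was at 16.0 ± 2.76 and 17.0 ± 1.21 CPM (0.08 ± 0.14, and -0.04 without 4 h replicate 3), and Stat5a at 16.7 ± 4.42 and 12.9 ± 0.944 CPM (-0.38 ± 0.18). Neither passed, and both were picked after their values were seen. Without 4 h replicate 2 the list had 2 higher and 5 lower genes (background 8.18% and 7.8%), Stat5a among the lower (edgeR adjusted p = 0.0276). Without 4 h replicate 3 the list had 2 higher (11.1%).

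Of 15 other genes of the IGF system 10 were tested, with 2 called higher, 1 lower and 7 not passing (median -0.22). Of all tested genes 9.17% were called higher and 9.51% lower. Igf2r, whose receptor clears IGF-2 and sorts lysosomal enzymes, went from 42.6, 41.8 and 40.3 to 58.5, 52.0 and 50.1 CPM (0.37 ± 0.10, edgeR adjusted p = 0.03). Irs2, a docking protein of the insulin receptor, went from 19.8, 24.7 and 16.1 to 43.6, 23.5 and 34.3 CPM, with 1 overlap between the groups (0.75 ± 0.22, edgeR adjusted p = 0.0433). Igfbp7, a binding protein with low affinity for IGF, fell from 46.7 ± 5.98 to 32.0 ± 5.16 CPM (-0.55 ± 0.14, edgeR adjusted p = 0.02). Insr, the insulin receptor gene and the most abundant of the list, did not pass (0.33 ± 0.12, edgeR adjusted p = 0.0743), though DESeq2 called it (adjusted p = 0.0414). Igf1r, picked after its values were seen, was low, at 3.16 ± 0.181 and 3.30 ± 0.327 CPM (0.06 ± 0.20, and -0.01 without 16 h replicate 2). Igf2, which adult mouse liver is known to silence, had 2 counts in all 6 libraries, with 64.5% of its exon bases under other genes.

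The 3 calls of the IGF system list did not hold in every fit that left out 1 library, though their direction did. Log2 changes there were 0.31 to 0.41 for Igf2r, 0.54 to 0.95 for Irs2 and -0.65 to -0.43 for Igfbp7. No gene of the list was called higher when 4 h replicate 1 or 16 h replicate 1 or 3 was left out, and 1 was when any other library was. None was lower when 4 h replicate 1 or 16 h replicate 2 or 3 was left out. Over the fits without 1 library, 4.74% to 11.1% of all tested genes were higher and 4.94% to 9.73% lower. At an unadjusted p under 0.05 all 6 libraries gave 3 higher and 3 lower genes, a count with no background share here. By DESeq2 they gave 3 and 1, where 11% and 9.79% of all tested genes were called. Igfbp7 is a product of endothelial and stellate cells: of 10 stellate cell and fibroblast markers 2, the collagen genes Col1a1 and Col3a1, fell by edgeR, 2 were lower by DESeq2, 4 were lower at an unadjusted p under 0.05 and none was higher by any of these, and their sums were 303 to 380.4 CPM after 4 h and 214 to 334 CPM after 16 h. Dcn was the most abundant of them. The shares of all tested genes called lower were 9.51% by edgeR and 9.79% by DESeq2. The part of these cells in the fall of Igfbp7 was not tested. Markers named for their calls were picked after their values were seen.

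Growth hormone also sets the sex bias of many liver genes, male mice secreting it in pulses, and 2 further lists cover genes known for that bias. Of 19 male-biased genes, all tested, 6 fell, 1 rose and 12 did not pass, where 9.51% and 9.17% of all genes did so. The list median was -0.45. Hsd3b5, a hydroxysteroid dehydrogenase gene of male liver, went from 211, 234 and 286 CPM to 31.9, 19.5 and 10.5 CPM (-3.56 ± 0.42, edgeR adjusted p = 0.00299). Selenbp2, a selenium-binding protein gene, fell from 1153 ± 451 to 322 ± 51.5 CPM (-1.84 ± 0.27, edgeR adjusted p = 0.00282, and -1.50 without 4 h replicate 3). Slco1a1, an organic anion transporter of male liver, fell from 534, 512 and 414 CPM to 309, 297 and 222 CPM (-0.82 ± 0.15, edgeR adjusted p = 0.00328).

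The remaining falls were smaller, those of Cyp4a12a (-0.52 ± 0.12) and of the pheromone carrier gene Mup3 (-0.54 ± 0.15), both picked after their values were seen, and that of the protease inhibitor gene Serpina1e (-0.45 ± 0.14). Serpina1e was the most abundant of the list, at 13998 ± 2536 and 10223 ± 764 CPM, and its call (edgeR adjusted p = 0.0468) held in 1 of 6 fits without a single library. Leaving out 16 h replicate 1 brought the male-biased genes that fell down to 3, while 5.85% of all tested genes were called lower in that fit. Leaving out 16 h replicate 3 left 0 that rose (background 4.77%). When 4 h replicate 1 (7.4%) or 3 (11.1%) was left out 2 rose, as by DESeq2 (11%), which called 8 lower (9.79%). The DESeq2 count of risers adds Moxd1, picked after its values were seen, with the largest rise of the list. It went from 34.9, 11.6 and 20.7 CPM to 77.9, 103 and 43.7 CPM (1.72 ± 0.51, edgeR adjusted p = 0.0787, DESeq2 adjusted p = 0.0103). Cyp4a12b, close in sequence to Cyp4a12a, rose from 93.8, 91.2 and 113 CPM to 139, 139.6 and 143 CPM (0.50 ± 0.11, edgeR adjusted p = 0.0102). Leaving out 16 h replicate 3 ended the call of Cyp4a12b (edgeR adjusted p = 0.0503). Leaving out 16 h replicate 1 or 2 ended that of Cyp4a12a (0.0665 and 0.0655), and leaving out any 16 h library that of Mup3 (0.0797, 0.119 and 0.0718). The Cyp4a, Mup, Hsd3b, Selenbp and Serpina1 genes belong to families of near-identical copies, and how shared reads were counted cannot be read from the tables, so the split between copies is uncertain.

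**Figure D4:**
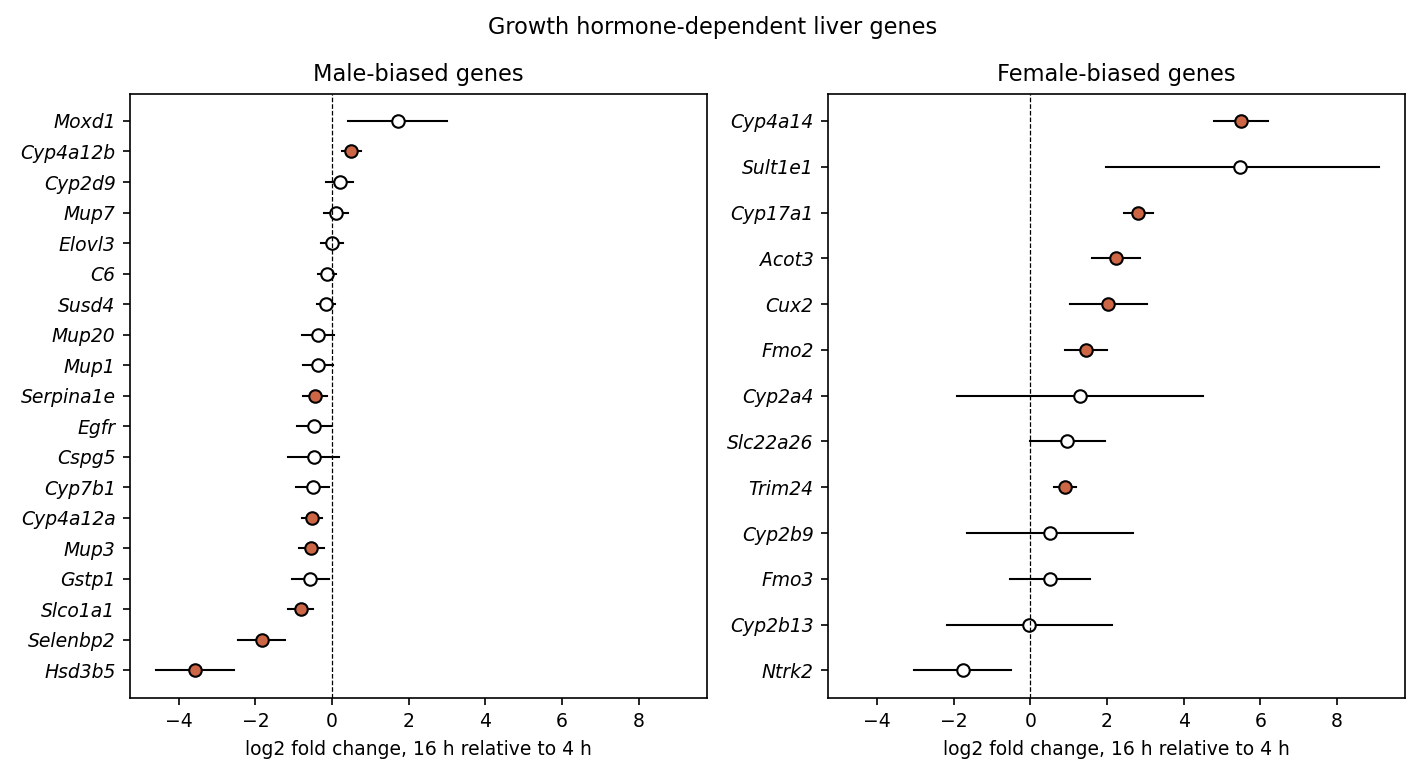
Log2 fold change at 16 h relative to 4 h (horizontal axis) of the tested genes of the male-biased (left) and female-biased (right) lists, with 95% intervals from edgeR. Filled circles passed the test. Of the male-biased genes 6 of 7 filled circles lie below 0, and of the female-biased genes all 6 lie above it. Cux2, among these 6, passed the filter on low counts through the group where it was high. Of all tested genes 9.17% were called higher and 9.51% lower.

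Of 20 female-biased genes 7 were too low to test in these male livers, and a gene low in one group could pass the filter through the other. Of the 13 tested 6 rose by edgeR and 7 were higher by DESeq2, where 9.17% and 11% of all tested genes were, and 7 did not pass edgeR (median 1.29). The DESeq2 count adds Sult1e1 (DESeq2 adjusted p = 0.000934, edgeR adjusted p = 0.0522), picked after its values were seen. It had 5, 5 and 0 counts in the 4 h libraries and 362, 22 and 115 in the 16 h libraries. Sult1e1 thus passed the filter through the group where it was high, and its place among the 13 and the 7 is not support for these counts. Slc22a26, picked after its values were seen, had 10, 10 and 5 counts after 4 h and 20, 9 and 23 after 16 h. It too was kept through the 16 h libraries, and its place among the 13 is no support either (0.96 ± 0.45, edgeR adjusted p = 0.151). The list median is the change of Cyp2a4 (1.29 ± 1.24), which did not pass (edgeR adjusted p = 0.526). Its counts were 43, 48 and 1 after 4 h and 173, 8 and 68 after 16 h, so the median is imprecise. Sult1e1, Slc22a26 and Cux2, each kept through the 16 h libraries, also enter that median, which is therefore no support for a rise of the list. None of the 13 fell by edgeR, while 1, Ntrk2, was lower at an unadjusted p under 0.05 and by DESeq2, which called 9.79% of all tested genes lower. Several of the risers are known for other roles. Cyp4a14, a fatty acid hydroxylase induced by fasting and the most abundant of the list, rose from 187, 166 and 83.7 CPM to 6080.5, 7398 and 6203 CPM (5.49 ± 0.31, edgeR adjusted p = 1.73e-05). Acot3, a peroxisomal acyl-CoA thioesterase, rose from 1.86 ± 0.626 to 8.87 ± 2.60 CPM (2.24 ± 0.28, edgeR adjusted p = 0.000405). Other genes overlap 20.6% of its exon bases. Cyp17a1, a steroid hydroxylase, rose 7.07-fold (2.82 ± 0.17, edgeR adjusted p = 6.1e-06).

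The other risers, named after their values were seen, included regulators of the sex bias. Cux2, a repressor known from female liver, was at 0.294, 0.322 and 0.365 CPM after 4 h and 1.56, 1.81 and 0.699 CPM after 16 h (2.02 ± 0.46, edgeR adjusted p = 0.0105). These levels rest on 5 to 8 counts in a 4 h library and 17 to 35 in a 16 h library, so that Cux2 passed the filter through the group where it was high, and its place among the 6 is not support for that count. Trim24, a nuclear receptor cofactor, rose from 16.8, 17.2 and 17.4 CPM to 28.9, 37.9 and 29.6 CPM (0.90 ± 0.13, edgeR adjusted p = 0.000771), and the monooxygenase gene Fmo2 from 12.1 ± 4.94 to 33.2 ± 4.78 CPM (1.45 ± 0.25, edgeR adjusted p = 0.00391).

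Genes with the pattern most like 3 of the members were found by the root mean square difference of centred log2 CPM over the 6 libraries, among 7487 protein-coding genes with at least 10 CPM on average. For Igfbp1 they were Abhd2 (0.20), Tat (0.286) and Trp53inp1 (0.325), and 2 genes lay within 0.3. For Socs2 they were Cyp7b1 (0.243), which is also on the male-biased list, Cfp (0.262) and Manf (0.275), with 10 genes within 0.3. Socs2 and Cyp7b1 were both highest in 4 h replicate 3, the library with lung transcripts. The part of that library in their likeness was not tested. For Igf1, whose levels hardly varied, Spg7 (0.019), Tspan33 (0.020) and Acsm5 (0.033) came first, but 5614 genes lay within 0.3. With 6 libraries, likeness of this kind is a description of these livers.

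Libraries held 15173653 to 26572532 counts assigned to genes. The tissue label was checked with 9 hepatocyte markers of 10 listed, 1 symbol not being in the annotation. They summed to 97466 to 104156 CPM after 4 h and 89746 to 100587 CPM after 16 h. Alb, the most abundant, alone held 54457 to 68085 CPM, so these sums say little of the other markers. Of the 9, edgeR called 3 higher and 3 lower (background 9.17% and 9.51%), and DESeq2 3 and 4 (11% and 9.79%). Cholangiocyte markers, led by Spp1, summed to 37.1 to 57.4 CPM and lymphocyte markers, led by Cd79b, to 1.73 to 4.12 CPM. Clec4f was the most abundant of the Kupffer cell list and Stab1 of the endothelial list.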

How the data were processed

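RNA from 6 livers was sequenced, 1 library per mouse. The authors deposited raw read counts per Ensembl gene, 1 table per library, not normalised. Reads were, per the submitters' processing notes, trimmed with Trimmomatic, viewed with FastQC, aligned with STAR to GRCm38 (mm10) and counted with HTSeq, and DESeq2 is named for their comparison. Their versions, annotation release and strand setting: not given in the sources used here. Summary lines that name no gene (6.44% to 7.14% of reads outside genes, 5.78% to 6.59% ambiguous) stayed out of totals and tests, and multi-mapped and unaligned reads are listed at 0.

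Symbols, positions and exon lengths came from GENCODE M21 of GRCm38, which held 55144 of 55471 identifiers. Genes kept by filterByExpr (13812, with 99.88% of counts) went into edgeR 4.0.16 (R 4.3.3): TMM scaling, robust quasi-likelihood fit, fasting group as the only term, 2-sided p-values adjusted over all tested genes by Benjamini-Hochberg, threshold 0.05. The biological coefficient of variation was 14.3%. The code was tested on simulated data. SE and 95% intervals come from this fit. Alternatives were DESeq2 1.42.0, its size factors in edgeR, no filter, a replicate block and leaving out each library. Libraries of a group differed beyond sampling noise (chi-square per degree of freedom 17.3 to 68.5), so none was merged.

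The members and gene lists were chosen with earlier results of these data known. From each further list the 3 most significant called genes per direction and the most abundant gene were named, from each marker list the most abundant, and genes outside this rule are marked where they appear.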

Additional observations from a re-analysis of the deposited data

How the results depend on the processing

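Of 350 refits of single genes of the axis lists, 306 kept direction and side of the threshold, 32 lost a call, 7 gained one and 5 turned sign. The sign changes were all of genes near 0: over fits that leave out 1 library Stat5b ranged from -0.024 (without 4 h replicate 3) to 0.11, Jak2 from -0.035 (without 4 h replicate 3) to 0.22, Igfbp4 from -0.046 (without 4 h replicate 1, and -0.0093 without 16 h replicate 2) to 0.22, and Igf1r from -0.011 (without 16 h replicate 2) to 0.12. The cause of these changes was not tested. Without the filter on low counts, which raised the number of genes tested to 26801, 2 of the 10 genes were higher, as were 4 of the IGF system list, and 1 female-biased gene was lower. Of all tested genes 5.81% were higher and 5.8% lower in that fit. DESeq2 called 2 male-biased genes higher and 1 female-biased gene lower (background 11% and 9.79%). Over the fits without 1 library, 4.74% to 11.1% of all tested genes were higher and 4.94% to 9.73% lower. Leaving out single libraries gave 1 to 2 higher and 2 to 3 lower of the 10 genes, 1 to 2 higher and 2 to 5 lower in the signalling list, 0 to 1 higher and 0 to 1 lower in the IGF system list, 0 to 2 higher and 3 to 9 lower male-biased genes, and 6 to 7 higher and 0 lower female-biased genes.

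Replicate numbers are shared by the groups, and the labels do not say whether they mark pairs. Same-numbered libraries deviated together only weakly (r from 0.045 to 0.093 across genes), though 5 of 6 libraries correlated best with their own number. The main fit did not treat them as pairs, and the fit with the replicate block did. With the replicate block 1352 genes were higher and 1396 lower, against 1267 and 1313. The block left 1 of the 10 genes higher and 3 lower. The call of Irs2 was lost with it (edgeR adjusted p = 0.0769) and Insr gained one (0.0441). With 3 livers a group, genes that vary between livers, such as Cish and Socs2, have wide intervals, and Cux2 rests on few counts.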
